A study of Mus musculus with 62 samples.

Results

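Tissue punches of the suprachiasmatic nucleus (SCN) differed in the level of transcripts of ependyma, the lining of the brain ventricles, and the 6 samples richest in these transcripts were compared with the 6 poorest. The samples were chosen by a score over 3 genes of ciliated ependymal cells, Foxj1, Ccdc153 and Tmem212, which is the mean z-score of their log2(CPM+1), where CPM is the count of a gene scaled to library size (per 1000000 counts) with TMM factors. The score ranked 17 of the 19 SCN samples, out of 62 samples in the whole series, and J1199 and J1140 were left out of the ranking. The study examined circadian rhythm disruption (CRD) in C57BL/6J mice of both sexes, and RNA was sequenced from the SCN, prefrontal cortex and nucleus accumbens (NAc). The sources differ on the age at CRD of the mice sequenced, since the study's methods name CRD in adolescence alone and GEO's extraction protocol names CRD in adolescence and in adulthood. Tissue was taken at ZT6, about 4 weeks after CRD or the control schedule had ended. GEO's labels name region and mouse but state neither CRD nor sex, so both sets of 6 may hold control and CRD mice, and no effect of CRD was tested. The 2 sets are therefore not groups of the study. By its label, each SCN sample came from a different mouse, and every p-value below describes association with a score measured in the same samples.

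Ependymal cells form the epithelium of the ventricles, and the SCN lies beside the floor of the third ventricle. Most of these cells carry tufts of motile cilia, whose beating moves cerebrospinal fluid. The core of a motile cilium, the axoneme, is a ring of microtubule doublets around a central pair, with dynein arms as motors, radial spokes and the nexin-dynein regulatory complex as their control, and further proteins inside the doublets. Foxj1 is the transcription factor that switches on this gene program together with factors of the RFX family. Neurons and astrocytes carry instead a single, mostly immotile primary cilium, which shares the transport machinery but lacks these motor parts.

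The 17 samples held 16496666 to 35389742 counts each (median 20622786), and the totals were 18174520 to 25757232 in the 6 highest and 19567108 to 28743444 in the 6 lowest samples. Mitochondrial ribosomal RNA took 20.5% to 51.6% of the counts, and 5868490 to 23495100 counts fell on protein-coding genes. J1157 and J1159 stood apart, with 20.5% and 24.8% of mitochondrial ribosomal RNA against at least 33.5% elsewhere. Both were in neither set. The library labelled J1165 went against its label, with 1403 counts of Xist, the X-inactivation RNA of female cells, in the SCN and 23 and 18 counts in the NAc and prefrontal cortex samples of that number. It was among the 6 lowest and was counted in the upper range of mouse numbers by its label. Where a result without it is given, this is stated, and all other results below include it. Each set held 3 mice of the lower range of mouse numbers (up to J1021) and 3 of the upper range (from J1140), and Xist ran from 1.07 to 118 CPM in the highest and from 0.0324 to 142 CPM in the lowest set.

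The 3 genes that chose the samples are given as a description. Foxj1 was at 11.1 to 22.3 CPM in the 6 highest samples (median 14.9 CPM) and at 3.22 to 7.54 CPM in the 6 lowest (median 6.41 CPM). Ccdc153, a coiled-coil protein of ciliated cells, was at 20.0 to 37.6 CPM (median 25.9 CPM) and at 5.17 to 11.5 CPM (median 9.04 CPM). Tmem212 was at 4.92 to 9.72 CPM (median 5.80 CPM) and at 1.0 to 2.76 CPM (median 1.97 CPM). The score itself ran from 0.42 in J1162 to 1.55 in J1011 within the highest set and from -1.95 in J1020 to -0.74 in J1160 within the lowest. Just inside the choice, J1162 (0.42) was hardly above J1157 (0.39), which was just outside, whereas J1160 (-0.74) lay well below its neighbour J1159 (-0.21). As a check of the label, a score over 6 other genes of ciliated cells (Dynlrb2, Rsph1, Cfap126, Mlf1, Ak7 and Hydin) was 0.27 to 1.12 in the highest and -1.52 to -0.56 in the lowest set, without overlap, and followed the first score over the 17 samples with a Pearson r of 0.929. Its order was not the same, since J1157 (1.16) and J1178 (0.67), both between the sets, lay above J1141 (0.27) and J1162 (0.37) of the highest set. Among the 6 genes, Hydin did not separate the sets. It was at 7.81 CPM in J1165 of the lowest set against at most 5.29 CPM in the highest set. In edgeR's quasi-likelihood test, described below, Hydin did not pass (log2 difference 0.45 ± 0.35, adjusted p = 0.59).

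**Figure D1:**
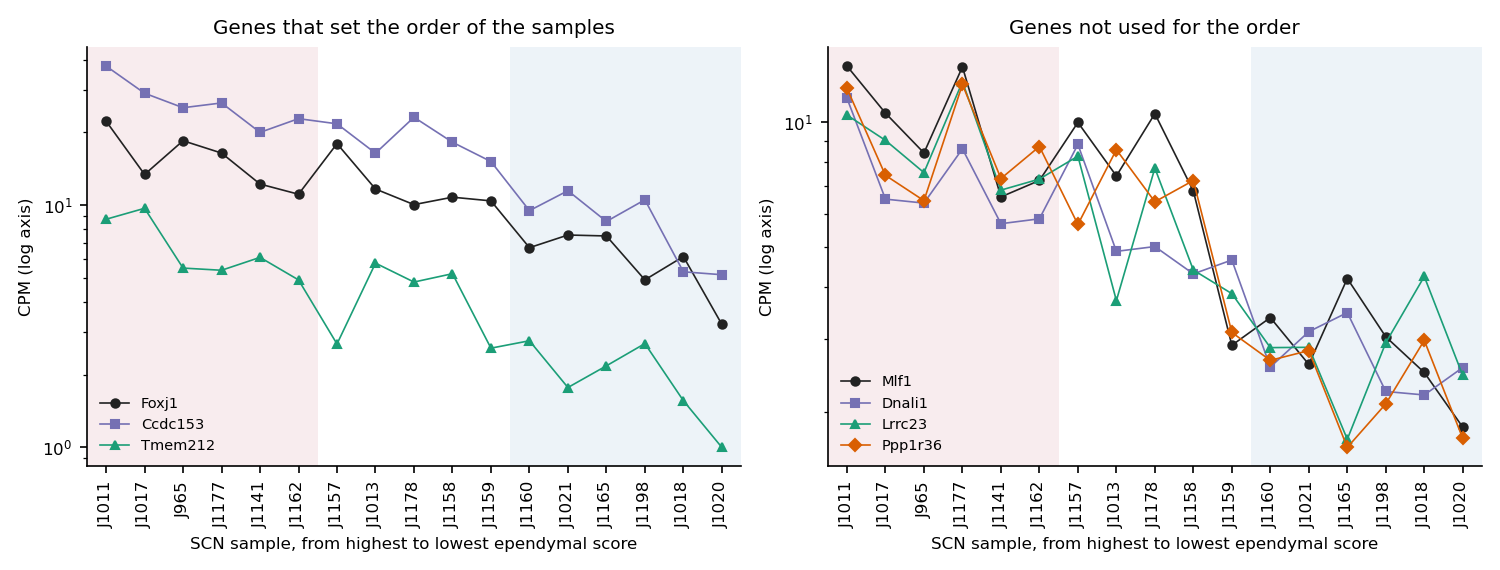
CPM on a log axis in each of the 17 SCN samples, ordered from the highest to the lowest ependymal score, for the 3 genes that set the order (left) and 4 genes that were not used for it (right); the red shade marks the 6 highest and the blue shade the 6 lowest samples, and each point is 1 sample. Mlf1, Dnali1, Lrrc23 and Ppp1r36 did not overlap between the sets, as with Mlf1 at 6.60 to 13.7 CPM against 1.83 to 4.19 CPM.

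Of 12044 genes tested besides the 3 of the score, 101 were higher in the highest set (0.839%) and 25 were lower (0.208%), in edgeR's quasi-likelihood test with an adjusted p under 0.05 and a minimum fold change of 1.2. The adjustment was over 12047 genes and included the 3 score genes, whose p-values are low because they chose the samples. This slightly lowers the adjusted p of other genes, which matters near 0.05, as for Elof1 (adjusted p = 0.0489). An adjustment without the 3 genes was not run. Without any threshold on p, the sets did not overlap for 115 genes that were higher (0.955%) and 47 that were lower (0.39%). The counts moved with single samples. Leaving out J1018 raised the number of called genes from 126 to 523, whereas it fell to 82 without J1160, 80 without J965, 69 without J1017, 61 without J1165, 55 without J1011, 48 without J1177, 45 without J1020 and 42 without J1198. Genes higher in the highest set numbered 41 to 247 over these fits and genes lower numbered 1 to 276. In bulk tissue, fewer cells of a type and less RNA per cell cannot be told apart, and this holds for every difference below.

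Genes of the axoneme made up a large share of those that were higher. Of 125 axonemal genes in 5 lists, 87 were in the table, from which the authors had already removed genes of low CPM. A gene low in the lowest set could stay in through its level in richer samples. Armc4, for example, had a median of 0.864 CPM in the lowest set. The shares below hold for the 87 genes alone, and the effect of the filter on them was not tested. Of the 87 genes, 33 were called higher and 0 lower, which is 37.9% against the 0.839% of all genes, and 85 of 87 had a positive log2 difference. The median log2 difference of the 87 genes was 0.89, and that of all genes tested was -0.00038. Without J1165 the number called was 24 and the median 0.98. With other single samples left out the number was 20 to 47, and the median log2 difference stayed between 0.61 and 1.15 under every alternative that was run.

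Among the motors, 4 of 18 genes of the dynein arms were higher. Dnah12, a heavy chain of the inner arms, was at 3.99 to 15.2 CPM in the highest set (median 5.71 CPM) and at 0.877 to 2.70 CPM in the lowest (median 2.29 CPM). All 6 high samples lay above all 6 low ones, with a log2 difference of 1.88 ± 0.33 (SE) and an adjusted p of 0.012. Dnali1, an intermediate-to-light chain of the inner arms, was at 5.69 to 11.4 CPM (median 6.45 CPM) against 2.19 to 3.47 CPM (median 2.56 CPM). Its sets did not overlap either, with a log2 difference of 1.46 ± 0.20 and an adjusted p of 0.0022. Dynlrb2, a light chain, was at 4.27 to 8.61 CPM against 1.28 to 3.48 CPM, a log2 difference of 1.46 ± 0.26 (adjusted p = 0.014). Dnah11, a heavy chain of the outer arms, differed by 1.15 ± 0.25 (adjusted p = 0.038), and its adjusted p rose to 0.078 without J1165. The gene of the list with the highest level, the light chain Dnal1, did not pass the test, with 46.7 to 53.6 CPM against 42.3 to 53.6 CPM and a log2 difference of 0.08 ± 0.08. Of the 10 genes in the list of factors that assemble or dock the arms, 1 was higher. This was the docking protein Armc4, at 1.68 to 6.03 CPM against 0.780 to 2.14 CPM, with overlapping sets and a log2 difference of 1.76 ± 0.32 (adjusted p = 0.016). All 10 genes of that list had a positive log2 difference, with a median of 0.74. Cfap298, the most abundant of them, was at 19.2 to 25.3 CPM against 14.2 to 19.7 CPM and had an adjusted p of 0.079. An antisense transcript, Gm49727, overlaps 44.2% of its exon length.

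Of 23 genes of the radial spokes and central pair, 10 were higher, 13 did not pass the test and 22 had a positive log2 difference. Spag6l, a central pair protein, was at 10.0 to 20.8 CPM (median 10.7 CPM) against 3.31 to 7.14 CPM (median 4.82 CPM). Its sets did not overlap, the log2 difference was 1.27 ± 0.23 and the adjusted p was 0.014. Ak7, an adenylate kinase of the central pair, was at 10.8 to 16.4 CPM (median 11.4 CPM) against 2.29 to 7.66 CPM (median 5.31 CPM), again without overlap, and differed by 1.33 ± 0.23 (adjusted p = 0.012). Spef1, a microtubule-bundling protein of the central pair, differed by 1.64 ± 0.31 (adjusted p = 0.019). Armc3 and Cfap70 differed by 1.62 ± 0.36 and 1.39 ± 0.32, with overlapping sets, and their adjusted p of 0.040 and 0.045 rose to 0.091 and 0.107 without J1165. The spoke head protein Rsph9, the most abundant gene of the list, was at 17.5 to 34.5 CPM against 14.5 to 23.6 CPM and did not pass the test (log2 difference 0.42 ± 0.15, adjusted p = 0.22).

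Of 17 genes of the nexin-dynein complex and of the ruler proteins that set the spacing along the doublet, 8 were higher. Drc7, a subunit of the complex, was at 5.54 to 10.0 CPM (median 7.65 CPM) against 1.56 to 3.63 CPM (median 2.76 CPM). The sets did not overlap, with a log2 difference of 1.52 ± 0.23 and an adjusted p of 0.0039. Cfap206, a protein of the spoke base, was at 4.82 to 12.1 CPM against 1.89 to 3.48 CPM and differed by 1.57 ± 0.23 (adjusted p = 0.0029). Cfap43 differed by 1.40 ± 0.27 (adjusted p = 0.019), Cfap61 by 1.13 ± 0.24 (adjusted p = 0.038, 0.058 without J1165) and Maats1 by 1.09 ± 0.22 (adjusted p = 0.024). Gas8, a core subunit of the same complex and the most abundant gene of the list that did not pass, was at 9.09 to 19.3 CPM against 8.84 to 13.4 CPM, a log2 difference of 0.30 ± 0.16. Iqca, a subunit of the complex, did not pass the test. It was at 1.93 to 4.94 CPM (median 4.53 CPM) in the highest set and at 0.0487 to 2.04 CPM (median 0.813 CPM) in the lowest, and the sets overlapped only between J1141 and the top of the lowest set. Its log2 difference was 1.94 ± 0.45 with an adjusted p of 0.052, which fell below 0.05 under 9 of the 29 alternatives that gave a value.

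The list of proteins inside the doublets and at the cilium tip had the highest median, 1.32, with 10 of 19 genes higher. Mlf1 was at 6.60 to 13.7 CPM (median 9.48 CPM) against 1.83 to 4.19 CPM (median 2.82 CPM). Its sets did not overlap, the log2 difference was 1.77 ± 0.23 and the adjusted p was 0.0013. Enkur, which binds calmodulin in motile cilia, was at 3.96 to 7.0 CPM against 1.0 to 2.82 CPM and differed by 1.54 ± 0.24 (adjusted p = 0.0055). Cfap52 differed by 1.55 ± 0.32 (adjusted p = 0.027, 0.053 without J1165) and Capsl by 1.78 ± 0.33 (adjusted p = 0.019). 1110017D15Rik was at 1.32 to 7.07 CPM (median 2.91 CPM) against 0.333 to 1.59 CPM (median 1.06 CPM). These sets overlapped, and the log2 difference of 1.97 ± 0.41 had an adjusted p of 0.032 that rose to 0.069 without J1165. Tppp3, a tubulin-binding protein also made outside ciliated cells and the most abundant of this list, was at 51.5 to 73.5 CPM against 27.1 to 68.2 CPM and did not pass (log2 difference 0.57 ± 0.18, adjusted p = 0.16).

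In a further list of ependymal genes, which mixes genes with and without a part in the cilium, 13 of 21 were higher and all 21 had a positive log2 difference, with a median of 1.10. Of 35 genes in that list, only these 21 were in the filtered table. The number called fell to 6 without J1011, J1177 or J1198, to 7 without J1020 and to 8 without J965, J1017 or J1165, and was 10 to 14 without each of the other samples. Calml4, a calmodulin-like protein, was at 2.23 to 4.80 CPM (median 3.58 CPM) against 0.50 to 1.40 CPM (median 0.695 CPM). The sets did not overlap and the log2 difference of 2.11 ± 0.27 (adjusted p = 0.0013) was the largest of the 126 called genes. Lrrc23, a radial spoke protein, was at 6.86 to 12.5 CPM against 1.72 to 4.24 CPM and differed by 1.66 ± 0.21 (adjusted p = 0.0013). Ccdc180 differed by 1.94 ± 0.32 (adjusted p = 0.0084), Fam216b by 1.76 ± 0.32 (adjusted p = 0.014) and Ak9 by 1.75 ± 0.37 (adjusted p = 0.034, 0.053 without J1165). Rarres2 and Tm4sf1, which have no part in the cilium, are named after their values were seen. Rarres2 encodes chemerin, a secreted chemoattractant, and was at 20.9 to 29.0 CPM (median 27.7 CPM) against 7.17 to 11.7 CPM (median 9.25 CPM). Its log2 difference of 1.50 ± 0.14 had the smallest adjusted p of all genes, 9.5e-05. Tm4sf1, a membrane protein, was at 15.6 to 30.7 CPM against 5.11 to 11.5 CPM and differed by 1.37 ± 0.20 (adjusted p = 0.0029). Nnat, the most abundant gene of the list, is made by neurons as well, and did not pass the test with 505 to 985 CPM against 315 to 725 CPM (log2 difference 0.47 ± 0.18, adjusted p = 0.24).

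Of 37 genes of intraflagellar transport and the BBSome, the machinery that carries cargo along every cilium, 0 were called, with 28 positive and a median log2 difference of 0.13. The range was -0.29 to 0.63. Their summed level was 763 to 884 CPM in the highest and 744 to 845 CPM in the lowest set. Kifap3, the kinesin subunit with the highest level among them, was at 105 to 147 CPM against 117 to 147 CPM (log2 difference -0.15 ± 0.09). None of 13 genes of primary cilium signalling was called either (median 0.04). Of 16 regulators of ciliogenesis, 9 were in the table and 0 were called, with a median of 0.04. Their log2 differences ran from -0.54 in Rfx7 to 1.12 in Myb (1.12 ± 0.43, adjusted p = 0.24), and Rfx2 had 0.80 ± 0.26 (adjusted p = 0.155). Rfx3, the RFX factor with the highest level, was at 45.7 to 57.9 CPM against 45.9 to 61.5 CPM, so that the sets overlapped almost entirely (log2 difference -0.09 ± 0.09).

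**Figure D2:**
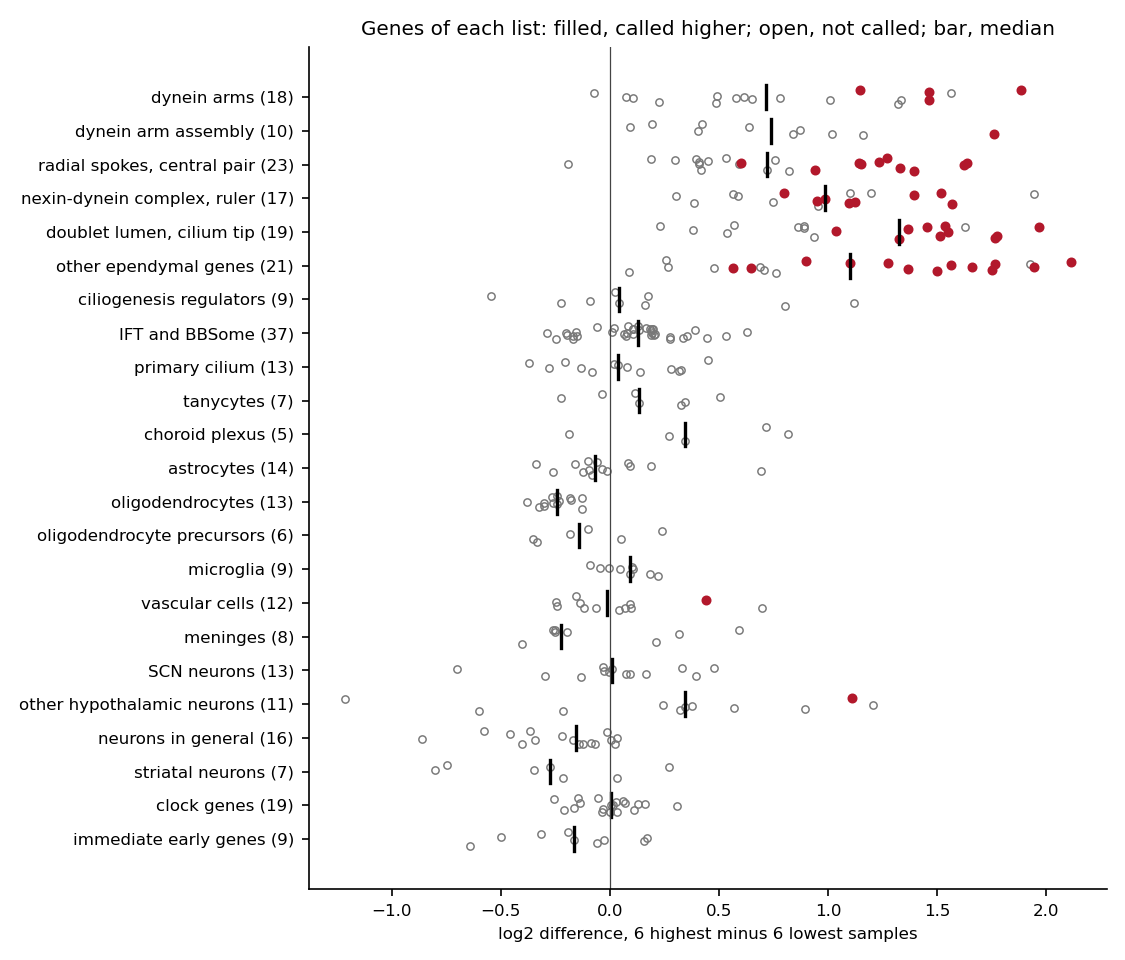
The log2 difference between the 6 highest and 6 lowest samples for every gene of each list in the table (number of genes in brackets); filled red points were called higher, open points were not called and the black bar is the median of the list. The 5 axonemal lists and the other ependymal genes lie to the right, with medians of 0.71 to 1.32, and the medians of the 17 lists below them lie between -0.27 and 0.34.

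The relation to the score was repeated over all 17 samples. Of 12044 genes, 113 rose with the score (0.938%) and 23 fell (0.191%) at an adjusted p under 0.05 in edgeR's quasi-likelihood test of the slope. Both fits share the 12 samples of the 2 sets, and 81 of the 101 genes called higher also rose, whereas 5 of the 25 called lower also fell. Axonemal genes that rose numbered 37 of 87, and 14 of the 21 other ependymal genes rose. J1165 and the pair J1157 and J1159 moved these counts, to 98 genes without J1165 (33 axonemal) and 251 without J1157 and J1159 (52 axonemal), from 136 in all. To compare lists on 1 scale, the slope was also expressed as the log2 change of a gene per doubling of the geometric mean of the 3 score genes, on which 1 means that a gene changed as steeply as they did. The median was 0.78 for the doublet and tip genes, 0.66 for the nexin and ruler genes, 0.55 for the other ependymal genes, 0.49 for the spokes and central pair, 0.48 for the dynein arms, 0.42 for arm assembly and 0.09 for transport genes. For all genes it was 0.0014.

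Correlations with the score over the 17 samples were tested by permutation, with adjustment over all 12044 genes. By Pearson's r, 112 genes rose (0.93%) and 16 fell (0.133%) at an adjusted p under 0.05, and by Spearman's rho 108 rose (0.897%) and 16 fell (0.133%). Mlf1 and Spag6l are called genes, chosen on 12 of the same 17 samples, so that their correlations are no independent support. Mlf1 had an r of 0.925 and a rho of 0.878, each at a permutation p of 1e-05, the smallest that 100000 resamples can give (adjusted p = 0.0038 and 0.0052). Without J1020 and J1018, the samples farthest from the median score, its r was 0.899. It was 0.985 within the lower range of mouse numbers (n = 7) and 0.865 within the upper range (n = 10). Spag6l reached an r of 0.945 and a rho of 0.868 (permutation p = 1e-05 for both, adjusted 0.0038 and 0.0052), with 0.915 without the same 2 samples, 0.951 in the lower range and 0.933 in the upper range. Dnal1 had an r of 0.268 and a rho of 0.282 (permutation p = 0.30 and 0.27, adjusted 0.77 and 0.72). For Iqca the values were an r of 0.746 and a rho of 0.694 (permutation p = 0.00061 and 0.0025, adjusted 0.055 and 0.12), and r fell to 0.597 without J1020 and J1018 and to 0.428 in the upper range. The same relation at the level of lists gave an r of 0.960 and a rho of 0.946 for the doublet and tip genes, 0.629 and 0.608 for transport genes and 0.130 and 0.113 for SCN neuron genes, as a description.

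**Figure D3:**
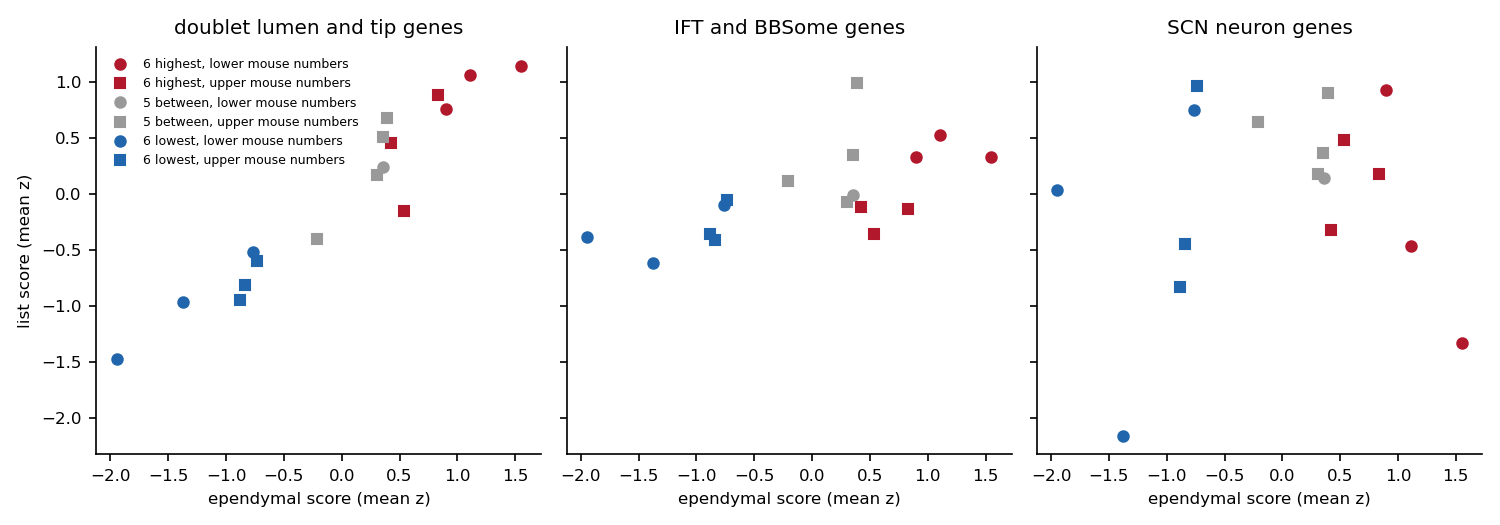
List scores (mean z-score of log2(CPM+1) over the genes of a list) against the ependymal score in the 17 SCN samples; red, grey and blue mark the 6 highest, 5 middle and 6 lowest samples, circles the lower and squares the upper range of mouse numbers. The doublet and tip genes rise along the whole range of the score (r 0.960), the transport genes less so (r 0.629), and the SCN neuron genes spread from -2.16 to 0.96 within the lowest set alone.

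Promoters of the axonemal genes were read from RefSeq windows (GRCm38.p6) that run from 250 bases before to 50 bases after each gene's start. RFX factors bind the X-box, an imperfect palindrome of which GTTGCC is 1 arm, and forkhead factors such as Foxj1 bind letters like TGTTTAC. Both were searched on both strands. GTTGCC was in the window of 11 of 29 axonemal genes called higher that had one (37.9%), of 35 of 73 axonemal genes in the table, called or not (47.9%), of 14 of 32 transport genes (43.8%), of 3 of 19 genes called lower (15.8%) and of 1425 of 9199 genes tested (15.5%). TGTTTAC was in 3 of 29 axonemal genes called higher (10.3%), in 6 of 73 in the table (8.22%), in 0 of 32 transport genes and in 2.99% of the genes tested. A match is a description of these letters and not a binding site. The 6 windows below, from axonemal genes that were higher in the highest set, show the arm in capitals with 18 bases on either side, on the strand of the gene. They lie at chr3:67373974-67374015 (+) for Mlf1, chr2:21205376-21205417 (-) for Enkur, chr9:14771085-14771126 (-) for 1700012B09Rik, chr8:116504946-116504987 (+) for Dynlrb2, chr7:83794855-83794896 (-) for Cfap161 and chr1:69826849-69826890 (+) for Spag16, and the capitals lie 28 to 99 bases before the start.
Mlf1: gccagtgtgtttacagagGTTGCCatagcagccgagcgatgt
Enkur: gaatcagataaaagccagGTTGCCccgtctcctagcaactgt
1700012B09Rik: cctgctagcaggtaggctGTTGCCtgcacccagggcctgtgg
Dynlrb2: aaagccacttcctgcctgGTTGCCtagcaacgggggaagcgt
Cfap161: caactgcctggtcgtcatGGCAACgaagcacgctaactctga
Spag16: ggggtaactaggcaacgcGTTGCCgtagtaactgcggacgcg
In Cfap161 the capitals are the same arm read from the other strand. Other matches stay in lower case, as with ggcaac in the line of Spag16 and tgtttac in that of Mlf1. The log2 differences of the 6 genes, in the order of the lines, were 1.77, 1.54, 1.51, 1.46, 1.45 and 1.15.

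Markers of other cell types were followed in the same fit. Of 7 tanycyte genes, the other cell type of this ventricle wall, 0 were called and the median log2 difference was 0.13, with a summed level of 68.5 to 116 CPM in the highest and 70.8 to 125 CPM in the lowest set. Of 5 choroid plexus genes in the table, 0 were called (81.0 to 164 CPM against 74.2 to 152 CPM in sum). The log2 difference was positive in 4 of them, with a list median of 0.34 and a range of -0.19 to 0.82. Enpp2, the most abundant and the negative one, was at 30.6 to 125 CPM against 47.1 to 130 CPM. The mean z-score of the list was higher in the highest set, with an exact permutation p of 0.041 (two-sided, adjusted p = 0.128 over 28 measures). The defining choroid plexus gene Ttr was not in the table. Astrocyte genes (0 of 14 called, summed level 2393 to 4038 CPM against 3232 to 4196 CPM) included Slc1a2, the glutamate transporter, at 620 to 1190 CPM against 1061 to 1433 CPM (log2 difference -0.34 ± 0.14, adjusted p = 0.27). All 13 oligodendrocyte genes had a negative log2 difference, with a median of -0.24, but 0 were called, and their summed level spread widely, from 485 to 2904 CPM in the highest and from 1052 to 3496 CPM in the lowest set. Mbp, a myelin protein, was at 162 to 893 CPM against 339 to 1171 CPM. Precursor, microglia and meningeal lists had 0 called genes.

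The lists of SCN neurons, striatal neurons, neurons in general and the clock held no called gene. Of 13 SCN neuron genes 0 were called, with a summed level of 232 to 805 CPM in the highest and 161 to 797 CPM in the lowest set. Avp, a neuropeptide of the SCN shell, was at 22.8 to 189 CPM against 42.8 to 146 CPM, a log2 difference of 0.48 ± 0.39. None of 19 clock genes, 9 immediate early genes, 7 striatal genes or 16 genes of neurons in general was called. The last list had a median log2 difference of -0.16, with 3 of 16 positive, and Map2, a dendritic microtubule protein, was at 564 to 787 CPM against 691 to 946 CPM (log2 difference -0.14 ± 0.11). Of the 28 measures compared between the sets by an exact permutation test of the difference in means (two-sided, 6 against 6 samples, smallest possible p 0.002165), 6 passed after adjustment. These were the scores of the 5 axonemal lists and of the other ependymal genes, with adjusted p of 0.012 to 0.020. The log2 total count (exact p = 0.18), the share of mitochondrial ribosomal RNA (exact p = 0.53) and the SCN neuron score (exact p = 0.74) did not pass.

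A single member of the vascular and of the other hypothalamic lists was called. Hdc, histidine decarboxylase, which makes histamine, was at 7.36 to 10.7 CPM (median 9.70 CPM) in the highest and 3.12 to 5.41 CPM (median 4.35 CPM) in the lowest set. Its sets did not overlap and the log2 difference was 1.11 ± 0.16 (adjusted p = 0.0029). Slc2a1, the glucose transporter of the blood-brain barrier, was at 65.3 to 80.2 CPM against 40.7 to 59.9 CPM, also without overlap, with a log2 difference of 0.44 ± 0.09 (adjusted p = 0.038). The call of Hdc was kept in each of the 12 fits without 1 sample and that of Slc2a1 in 4 of them. The other 11 vascular and 10 hypothalamic genes in the table were not called, and the medians of the lists were -0.01 and 0.34.

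Outside the lists, 53 genes were higher. Among those with non-overlapping sets and at least 5 CPM, Ppp1r36, a regulatory subunit of protein phosphatase, was at 6.47 to 12.4 CPM (median 8.09 CPM) against 1.64 to 2.97 CPM (median 2.37 CPM), a log2 difference of 1.97 ± 0.22 (adjusted p = 0.00068). Wdr49 was at 19.5 to 49.1 CPM (median 32.3 CPM) against 7.17 to 13.1 CPM (median 8.50 CPM), a log2 difference of 1.87 ± 0.22 (adjusted p = 0.0011). Rgs22 differed by 1.11 ± 0.18 (adjusted p = 0.0085) and Kif6, a kinesin of motile cilia, by 0.99 ± 0.16 (adjusted p = 0.0061). These 4 genes were called in each fit without 1 sample. Adamts20, a secreted protease, was at 8.51 to 12.2 CPM against 4.09 to 6.71 CPM and differed by 1.09 ± 0.14 (adjusted p = 0.0016), Vit (vitrin) by 0.83 ± 0.16 (adjusted p = 0.019) and Anxa2, a membrane-binding annexin, by 0.91 ± 0.20 (adjusted p = 0.038, 0.053 without J1165). Tagln2, an actin-binding protein, Ctbs, a lysosomal chitobiase, and Mro differed by 0.66 ± 0.14, 0.65 ± 0.15 and 0.57 ± 0.12, and without J1165 the calls of Tagln2 (adjusted p = 0.078) and Ctbs (adjusted p = 0.103) were lost. The co-chaperone Dnaja4 and the linker histone Hist1h1e differed by 0.58 ± 0.12 and 0.58 ± 0.11, and both calls were lost without J1165 (adjusted p = 0.053 for each). Wdr61 overlaps 44.1% of the exon length of Dnaja4 on the opposite strand and Hist1h2be overlaps 25.7% of that of Hist1h1e, so that reads of these neighbours may not be fully separated.

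Genes lower in the highest set had smaller differences. The 11 named by the rule were at 5 CPM or more, with non-overlapping sets, and their log2 differences lay between -0.82 and -0.38. Otp, a transcription factor of neurosecretory hypothalamic neurons, was at 10.2 to 23.2 CPM (median 17.4 CPM) in the highest and 24.9 to 36.2 CPM (median 27.8 CPM) in the lowest set, a log2 difference of -0.78 ± 0.17 (adjusted p = 0.038). Sim1, a factor of the same neurons, is named after its values were seen. It was at 3.98 to 8.55 CPM against 6.58 to 22.8 CPM, with overlapping sets, and differed by -1.08 ± 0.24 (adjusted p = 0.045, 0.081 without J1165). Unc13c, a presynaptic priming factor, was at 13.8 to 23.4 CPM against 25.6 to 39.3 CPM (log2 difference -0.78 ± 0.15, adjusted p = 0.021). Tenm2, a synaptic adhesion protein, differed by -0.55 ± 0.12 (adjusted p = 0.038), the potassium channel Kcnma1 by -0.42 ± 0.09 (adjusted p = 0.033) and Dock3, an exchange factor of neurons, by -0.46 ± 0.09 (adjusted p = 0.027). The ubiquitin ligase Hecw1 differed by -0.66 ± 0.13 (adjusted p = 0.021), Fam189a1 by -0.82 ± 0.16 (adjusted p = 0.026), Zfp382 by -0.64 ± 0.13 (adjusted p = 0.024), Lpgat1 by -0.40 ± 0.09 (adjusted p = 0.034), Uhmk1 by -0.39 ± 0.09 (adjusted p = 0.045) and Tmtc1 by -0.38 ± 0.09 (adjusted p = 0.047). Without J1165 none of the 11 was called (adjusted p of 0.053 to 0.107). Over the 17 samples, Zfp382 and Otp also fell with the score (adjusted p = 0.0092 and 0.0053).

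Exon length moved with these differences. The 25 genes called lower had a median exon length of 9816 bases, the 101 called higher 3405 bases and all genes tested 4713 bases, and 23 of the 25 were above that last value. Across 12017 genes, which are not independent replicates, the Spearman rho between exon length and log2 difference was -0.446. Between samples, a length index (the mean log2(CPM+1) of the 25% longest protein-coding genes minus that of the 25% shortest) was 0.54 to 0.81 in the highest and 0.64 to 1.004 in the lowest set, with an exact permutation p of 0.015 (two-sided, adjusted p = 0.061 over the 28 measures). The share of ribosomal protein genes was 1.15% to 1.43% against 0.876% to 1.32% (exact permutation p = 0.024, adjusted 0.083). When the length index was a term of the 6 against 6 fit, 9 genes were called higher and 1 lower, with 1 axonemal gene among them, Ak7. The median log2 difference of the axonemal genes was then 0.87. Within genes longer than the median of 4713 bases, 31 of 32 axonemal genes had a positive log2 difference, with a median of 0.77 against -0.08 for all 6008 genes of that length. For shorter genes the values were 54 of 55 and a median of 0.98 against 0.08. Over the 17 samples, the same term raised the number of called genes to 362, of which 60 were axonemal and rose.

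**Figure D4:**
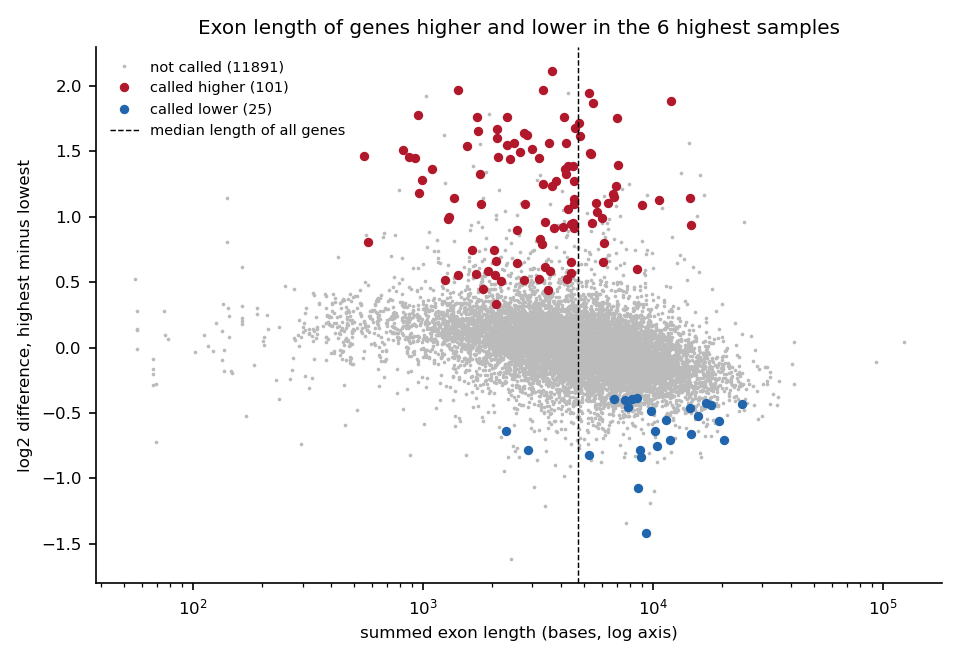
The log2 difference between the 6 highest and 6 lowest samples against the summed exon length on a log axis for 12017 genes, each a point; red points were called higher (101), blue points lower (25), and the dashed line is the median length of all genes, 4713 bases. Most blue points lie to the right of the line, while red points lie on both sides.

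Within the 2 ranges of mouse numbers the sets shrank to 3 against 3 samples, and only 6 genes were called in each range. The median log2 difference of the axonemal genes was 1.11 in the lower range (85 of 87 positive) and 0.61 in the upper range (83 of 87 positive). These sets differed in score by unlike amounts. The score was 0.90 to 1.55 against -1.95 to -0.76 in the lower range, and 0.42 to 0.83 against -0.88 to -0.74 in the upper range. A test of the difference between the ranges, as an interaction of range and score over the 17 samples, gave 0 of 96 genes examined and 0 of all 12047 genes with an adjusted p under 0.05 in edgeR. Of all 12047 genes, 695 had an unadjusted p under 0.05 in that test, a threshold that a share of 0.05 meets by chance. Slopes within the lower range (7 samples) and the upper range (10 samples) were called for 63 and 3 genes, 27 and 0 of them axonemal.

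The samples that the ranking left out carried little ependymal RNA by the same score. Over all 19 samples, J1140 had the lowest score, -2.84, with Foxj1 at 2.56 CPM, Ccdc153 at 2.59 CPM and Tmem212 at 0.0647 CPM, and J1199 was 16th with -0.99. Both stood out in genes of striatal neurons, with Ppp1r1b, a phosphatase inhibitor of those cells, at 66.9 CPM in J1140 and 134 CPM in J1199 against at most 9.87 CPM in the other 17. With all 19 samples ranked in the same way, the 6 lowest included both, and 231 genes were called, 139 higher and 92 lower, with 39 axonemal genes among those higher.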

How the data were processed

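RNA had been sequenced from punches of the SCN, NAc and prefrontal cortex. The counts used here are raw gene counts deposited by the authors, who prepared libraries from 10 ng of RNA with a SmartSeq HT kit, checked reads with FastQC (version 0.11.7 in the submitters' processing notes), aligned them to GRCm38 with HISAT2, counted them with HTSeq in union mode and removed genes of low CPM. The SCN table held 12047 genes, with 0 rows lacking a gene name. The annotation release and the strand setting of the counting are not given in the sources used here. The table of the NAc and prefrontal cortex was used only for Xist, since it held 0 of the 3 score genes and the planned repeat in the NAc could not be run.

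TMM factors were computed over the 17 ranked SCN samples. The 6 highest and 6 lowest in the score were compared with edgeR 4.0.16 (glmQLFit and glmQLFTest in R 4.3.3), in which filterByExpr removed 0 genes, with Benjamini-Hochberg adjustment over all genes. The SE of a log2 difference was its size divided by the square root of F. Slopes over the 17 samples were fitted in the same way. The score genes were left out of every count of called genes, but in the edgeR fits they stayed among the 12047 genes of the adjustment. Single measures were compared by exact permutation tests, and correlations by 100000 permutations with adjustment over all genes (Python 3.11.15, scipy 1.17.1). Exon lengths came from GENCODE M21 on GRCm38. Both fits were tested on simulated data. No 2 of the 17 samples held identical values. All counts and shares carry the counting error of reads without molecular identifiers, and where nothing says that samples were processed separately, p-values measure the spread between these samples.

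The members and the gene lists were chosen with earlier results of these data known. Named genes were, for each list, the 5 called genes with the largest log2 difference and, in 13 lists, the gene of highest mean CPM among those not called, and outside the lists up to 12 called genes in each direction with non-overlapping sets and a mean of at least 5 CPM, without predicted and mitochondrial genes, together with Iqca and 1110017D15Rik. Others were named after their values were seen. Alternatives were DESeq2 1.42.0, its size factors, limma 3.58.1, other filters, set sizes and scores, terms for range, neuron score and RNA shares, and fits without each sample. Those added after the data had been seen were the length index as a term, the lower range for the 2 sets, and the slopes without J1165 and without J1157 and J1159.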

Additional observations from a re-analysis of the deposited data

Results flagged for a closer look

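In 9 of 190 sets of 6 values, the highest or lowest sample stood apart from the rest by more than Dixon's 95% limit on the gap over the range, and chance gives about 1 in 20. In the highest set, J1011 stood above the others in Spag6l (20.8 CPM, next 11.9 CPM, gap 0.822) and in Capsl (8.81 CPM, next 5.09 CPM, gap 0.651). J965 stood above the others in Hist1h1e (145 CPM, next 119 CPM, gap 0.670), and J1141 below them in Iqca (1.93 CPM, next 4.02 CPM, gap 0.694). J1177 stood above them in the log2 total count (24.6, next 24.3, gap 0.680) and in the share of ribosomal protein genes (1.43%, next 1.21%, gap 0.772). In the lowest set, J1160 stood above the others in Armc4 (2.14 CPM, next 1.10 CPM, gap 0.761), and J1018 in Capsl (3.22 CPM, next 1.41 CPM, gap 0.690) and in the share of ribosomal protein genes (1.32%, next 1.04%, gap 0.637). Without J1011 the log2 difference of Spag6l was the lowest of its 12 values with a sample left out, 1.06, and the gene was still called.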

How the results depend on the processing

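No paired analysis was possible because each SCN sample is, by its label, the only one of its mouse in the comparison. Of 50 called genes named by the rule, 0 changed sign under any of the 30 alternatives for the highest against the lowest samples, and 19 were called in each of the 12 fits without 1 sample. These were Dnah12, Dynlrb2, Dnali1, Ak7, Spag6l, Cfap206, Drc7, Mlf1, Enkur, Calml4, Ccdc180, Fam216b, Lrrc23, Hdc, Ppp1r36, Wdr49, Rgs22, Adamts20 and Kif6. Without J1165, 23 of the 50 were not called. Across the 18 alternatives other than leaving out 1 sample, 0 of the 50 were called under every one. Most alternatives reuse the same samples, so an unchanged sign is a weak check. With the length index as a term 2 were called, Ak7 and Ccdc180.

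The 126 called genes (33 axonemal) became 379 (53) with the DESeq2 Wald test, 52 (16) at a mean of at least 5 CPM, where fewer genes are tested, 15 (7) with 8 against 8 samples, 6 (0) within the upper and 6 (2) within the lower range of mouse numbers, where fewer samples enter, 272 (47) with the SCN neuron score as a term, 10 (1) with the length index as a term and 231 (39) with all 19 samples. Fits without 1 sample gave 42 to 523 genes, 20 to 47 of them axonemal. Called genes that were lower numbered 181 of the 379 with DESeq2 and 0 of the 15 with 8 against 8 samples. The other 10 alternatives gave 87 to 131 genes, but not always the same ones. Ranking by the 6 check genes, which were then left out of the count, kept 73 of the 126 called genes and 3 of the 25 lower ones. The fit of 4 against 4 samples kept 74 and 6, and the score without Tmem212 kept 79 and 3. The rest of these alternatives kept 85 to 126 called genes and 12 to 25 lower ones. The slope over 17 samples, with 136 called genes (37 axonemal), gave 63 (27) within the lower and 3 (0) within the upper range, 362 (60) with the length index as a term, 251 (52) without J1157 and J1159 and 218 (55) with all 19 samples. The cause of these shifts was not tested beyond the number of genes or samples.

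Genes near 0 that were not called changed sign as follows: Rfx3 to 0.033 when samples were ranked by the 6 check genes, Enpp2 to 0.45 and Mbp to 0.30 within the upper range, Kifap3 to 0.0062 and Map2 to 0.010 within the lower range, and Map2 to 0.10 with the length index as a term. Of the 87 axonemal genes, 73 had a mean under 10 CPM, which limits their precision.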

Other observations

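The 53 genes that were higher in the highest set and belong to no list included the following, named here after their values were seen. Saxo2, a microtubule-stabilising protein of the axoneme, was at 2.88 to 4.43 CPM in the highest and 0.646 to 1.40 CPM in the lowest set (log2 difference 1.72 ± 0.22, adjusted p = 0.0013), and Kif9, a kinesin of motile cilia, had a median of 4.82 CPM against 2.46 CPM (1.06 ± 0.24, adjusted p = 0.044). The tubulin Tubb4b, which many cells make, differed by 0.33 ± 0.07 from a far higher level, 207 to 250 CPM against 166 to 205 CPM (adjusted p = 0.044). Ezr, an organiser of apical membranes and microvilli, was at 23.7 to 44.9 CPM against 16.2 to 24.9 CPM (0.80 ± 0.16, adjusted p = 0.027). Ocln, the tight junction protein occludin, was at 9.19 to 13.4 CPM against 7.16 to 8.97 CPM (0.52 ± 0.12, adjusted p = 0.044). Lbp, which binds bacterial lipopolysaccharide, had a median of 5.90 CPM against 2.32 CPM (1.62 ± 0.27, adjusted p = 0.0084). Without J1165 Saxo2 and Lbp were still called (adjusted p = 0.0037 and 0.0145), and Kif9, Tubb4b, Ezr and Ocln were not (adjusted p of 0.061 to 0.097).

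Among the 25 genes that were lower, none of them in a list and again named after their values were seen, Adamts2, a protease that processes procollagen, had the largest difference, with 2.56 to 7.12 CPM against 5.22 to 15.1 CPM and overlapping sets (-1.42 ± 0.27, adjusted p = 0.019). Grm5, a metabotropic glutamate receptor, was at 53.2 to 97.5 CPM against 94.6 to 123 CPM (-0.64 ± 0.14, adjusted p = 0.038) and also fell with the score over the 17 samples (adjusted p = 0.0031). Kcna2, a potassium channel of axons, was at 23.3 to 35.4 CPM against 30.3 to 65.1 CPM (-0.71 ± 0.16, adjusted p = 0.045). Without J1165 Adamts2 was still called (adjusted p = 0.037), and Grm5 and Kcna2 were not (adjusted p = 0.075 and 0.102). All adjusted p are from edgeR's quasi-likelihood test over all genes.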
